A study of Sus scrofa with 9 samples.

Results

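The S100 proteins are a family of small calcium-binding proteins, and the transcripts of 10 of them were followed in porcine valvular interstitial cells (PVICs), the resident fibroblast-like cells of the aortic valve. The members were chosen by symbol in the gene part of the count table: S100A1, S100A2, S100A4, S100A6, S100A10, S100A11, S100A13, S100A14, S100A16 and S100B. Of the 10 genes listed, 9 had a row and all 9 were tested, among 19535 genes in the table and 13662 genes tested. S100B has no row under that symbol in the table and was not analysed here. The wild-type cells came from the aortic valves of pigs aged 4 to 5 months, and the leaflet surface was swabbed to remove endothelial cells before the interstitial cells were released with collagenase. Control PVICs were kept in DMEM, the OIM group in an osteogenic induction medium with added phosphate (sodium dihydrogen phosphate at 2 mmol/L), ascorbic acid at 50 µg/mL and insulin, and the bFGF group in the same OIM with basic fibroblast growth factor at 50 ng/mL, each for 3 days by the labels. RNA of 3 libraries per group was sequenced, and no source says whether these came from separate animals or dishes, so p-values measure only the spread between these libraries. The total of gene counts ran from 57075793 to 67371523 in the control and OIM libraries and from 46773376 to 48270827 in the bFGF libraries.

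S100 proteins form dimers that carry a pair of EF-hands in each chain, the helix-loop-helix fold that holds a calcium ion. When calcium is bound, most of them open a surface that grips a partner such as an annexin, a myosin heavy chain or p53, so they pass a calcium signal on to the cytoskeleton, the membrane and the nucleus. Some members also leave the cell and act on receptors such as RAGE (encoded by AGER) and TLR4. S100A4 is widely used as a marker of fibroblasts, and S100A8, S100A9 and S100A12 are proteins of neutrophils and monocytes.

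The second EF-hand loop of each protein is shown because it is the canonical calcium-binding loop that the members share, and because S100A10 departs from it. The sequences are from the RefSeq annotation of the pig genome (Sscrofa11.1), read 5′ to 3′ on the coding strand, and all lie in coding exons. The loop was searched as a run of 12 residues with aspartate at positions 1 and 5, leucine, valine or isoleucine at position 8 and phenylalanine at position 10. Capitals mark the codons of positions 1, 3, 5 and 12, whose side chains reach the calcium ion in a canonical loop.
S100A1, chr4:96007277-96007312, minus strand: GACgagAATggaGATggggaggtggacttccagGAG
S100A2, chr4:96076615-96076650, plus strand: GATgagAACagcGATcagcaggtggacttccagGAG
S100A4, chr4:96090914-96090949, plus strand: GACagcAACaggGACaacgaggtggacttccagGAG
S100A6, chr4:96099502-96099537, plus strand: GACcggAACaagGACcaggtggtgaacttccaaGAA
S100A10, chr4:97272139-97272174, plus strand: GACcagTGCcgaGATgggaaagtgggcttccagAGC
S100A11, chr4:97238812-97238847, plus strand: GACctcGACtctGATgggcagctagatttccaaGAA
S100A13, chr4:96024925-96024960, plus strand: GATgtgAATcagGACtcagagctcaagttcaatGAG
S100A16, chr4:96036801-96036836, plus strand: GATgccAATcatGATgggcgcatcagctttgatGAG
Of the 9 members, 8 held a loop that matched, and 7 of these ended in a glutamate codon (GAG or GAA). The loop of S100A10 has a cysteine codon at position 3 and a serine codon at position 12. S100A10 is known to have lost calcium binding and to hold its partner without it. S100A14 had no match to these letters, which says only that they are not in the annotated protein.

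All 9 members with a row lie on chromosome 4, where the annotation places 15 S100 genes between 96007026 and 97272517. S100A1, S100A13, S100A14 and S100A16 stand at one end, within 31577 bases. S100A2, S100A3, S100A4, S100A5 and S100A6 follow within 26191 bases, and S100A11 and S100A10 lie apart at the far end. S100A1, on the minus strand, runs antisense into S100A13, and the annotated exons of the pair share 200 bases, which take in most of the loop of S100A1 shown above. The program that counted the reads and its strand setting are not given in the sources used here. Reads from those bases may therefore belong to either gene.

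In bFGF against OIM, S100A4 and S100A6 rose while S100A1, S100A13 and S100A14 fell, and the remaining 4 members had smaller differences. Levels are CPM (the count of a gene as parts in 1e+06 of the library) on library sizes scaled by the trimmed mean of M-values (TMM). A gene was called higher or lower when the edgeR quasi-likelihood test gave an adjusted p (Benjamini-Hochberg over all genes tested) of at most 0.05 with a log2 fold change of at least 0.5 in size. Of the 9 members, 2 were called higher, where 17.7% of all genes tested were, and 3 were called lower, where 18.4% were. By the adjusted p alone 4 members were higher and 5 lower, beside 33.8% and 33.5% of all genes, and the bFGF and OIM libraries did not overlap for 9 of 9 members, beside 72.1% of all genes. DESeq2 also called 5 members, beside 4959 of the 13662 genes tested. With library totals in place of TMM 5427 of 13662 genes were called, and the higher share of all calls was 68.8% against 49.0%. The members called were then 4 higher (S100A2, S100A4, S100A6 and S100A10) and 1 lower (S100A1). The median size of the log2 fold change was 0.65 over the members and 0.39 over all genes tested, and the median with its sign was -0.10 over the members and -0.0029 over all genes. These are sequencing counts of whole cultures, in which fewer cells of a type and less RNA per cell cannot be told apart.

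**Figure D1:**
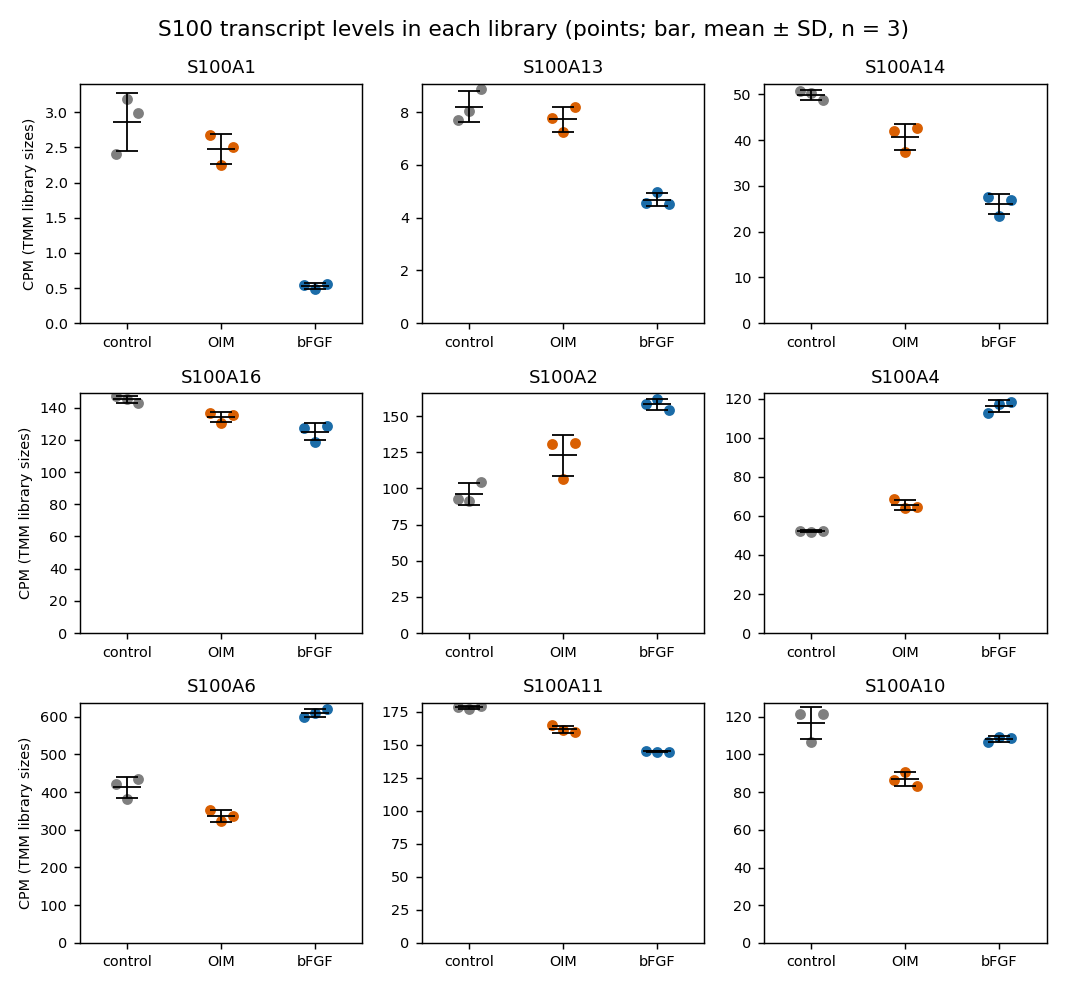
Level of each measured S100 member in each library, in CPM on TMM library sizes, with a panel per gene in the order of the genes along the chromosome; points are libraries, and the bar gives the mean ± SD of 3 libraries. The bFGF libraries stand above all others for S100A2, S100A4 and S100A6, and below all others for S100A1, S100A11, S100A13, S100A14 and S100A16.

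S100A6 (calcyclin), a partner of annexins and of the ubiquitin ligase adaptor CACYBP, had the largest estimated rise in bFGF against OIM, though not in bFGF against control. It was at 423, 381 and 434 CPM in the control libraries, 352, 322 and 335 CPM in the OIM libraries and 599, 609 and 621 CPM in the bFGF libraries. The 3 groups did not overlap, and the order was OIM, control, bFGF from low to high. The log2 fold change was 0.86 in bFGF against OIM (SE 0.0444, adjusted p = 9.94e-13) and 0.56 in bFGF against control (adjusted p = 5.59e-10). OIM against control gave -0.29 (SE 0.0442, adjusted p = 0.000117), which was under the fold limit.

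S100A4, which binds the non-muscle myosin heavy chain encoded by MYH9, rose in bFGF against OIM by a similar amount from a different starting order. Its levels were 52.3, 51.5 and 52.5 CPM in control, 68.8, 63.9 and 64.4 CPM in OIM and 113, 118 and 119 CPM in bFGF. Here control was lowest and OIM intermediate, with no overlap between the 3 groups. The log2 fold change was 0.82 in bFGF against OIM (SE 0.0425, adjusted p = 9.27e-13) and 1.16 in bFGF against control (SE 0.043, adjusted p = 4.68e-15). OIM against control gave 0.33 (adjusted p = 2.06e-05), under the fold limit. The ratio of S100A4 to S100A6, in counts per kilobase of merged exon, was 0.101 ± 0.00597 (SD, n = 3) in control, 0.156 ± 0.00257 in OIM and 0.153 ± 0.00192 in bFGF. It stood higher in every OIM and bFGF library than in every control library.

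S100A2, a nuclear member known from epithelial cells that binds p53, is named in the study among transcripts upregulated after bFGF. The study reads them as evidence of anti-inflammatory processes. It was measured at 92.8, 91.0 and 105 CPM in control, 131, 107 and 131 CPM in OIM and 158, 162 and 154 CPM in bFGF. The groups did not overlap and stood in the order control, OIM, bFGF, as for S100A4, with OIM replicate 2 close to the highest control library. Neither step reached the fold limit: the log2 difference was 0.35 in OIM against control (SE 0.0648, adjusted p = 0.000873) and 0.37 in bFGF against OIM (SE 0.0643, adjusted p = 4.59e-05). Over both steps, in bFGF against control, S100A2 rose by 0.72 (SE 0.0648, adjusted p = 5.15e-09). With library totals in place of TMM the bFGF against OIM value was 0.59 and passed the limit.

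S100A10 (p11), the partner of annexin A2 in a complex at the inner face of the plasma membrane, was lowest in OIM. Its levels were 122, 107 and 121 CPM in control, 86.5, 90.8 and 83.3 CPM in OIM and 107, 109 and 109 CPM in bFGF. The OIM libraries stood below both other groups, and the bFGF libraries lay beside the lowest control library, with bFGF replicate 1 at 106.6 CPM and control replicate 2 at 106.8 CPM. The log2 difference was -0.42 in OIM against control (SE 0.0489, adjusted p = 5.23e-06) and 0.32 in bFGF against OIM (SE 0.049, adjusted p = 9.83e-06), both under the fold limit. In bFGF against control it was -0.11, with a 95% interval from -0.21 to -0.0052 before adjustment and an adjusted p of 0.0569, and the sign turned with library totals (0.12).

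S100A1, the member best known from heart muscle, where it acts on the calcium pump of the sarcoplasmic reticulum, had the largest fall. It was at 2.40, 3.18 and 3.00 CPM in control, 2.68, 2.26 and 2.503 CPM in OIM and 0.541, 0.481 and 0.558 CPM in bFGF. These levels rest on 131 to 193 counts in the control libraries, 143 to 147 in OIM and 25 to 29 in bFGF. Control and OIM overlapped, and every bFGF library was far below both. The log2 fold change was -2.23 in bFGF against OIM (SE 0.233, adjusted p = 4.95e-08) and -2.44 in bFGF against control (adjusted p = 1.11e-08), or 4.69-fold and 5.42-fold lower. In OIM against control it was -0.21 with a 95% interval from -0.62 to 0.20 and an adjusted p of 0.55. The 5 heart muscle markers with a row summed to 1.95 to 3.73 CPM in any library, and of these TNNT2 and NPPA had 0 counts in every library. Most of the sum was TNNI3, with group means of 1.84, 1.94 and 2.86 CPM in control, OIM and bFGF. TNNI3 was called higher in bFGF against OIM (0.56, adjusted p = 0.0468, with the groups overlapping) and in bFGF against control (0.64, adjusted p = 0.0248), where S100A1 fell. MYH7 had 11 to 40 counts and was not called in any comparison. The summed Schwann cell and melanocyte markers, most of it MITF, moved with S100A1, from 16.5 to 18.2 CPM in the OIM libraries to 5.85 to 7.61 CPM in the bFGF libraries, and their part in the result was not tested. Within the list, MITF (-1.36) and MLANA (-1.73) fell in bFGF against OIM, while SOX10 was at 0.201 CPM in OIM and 0.405 CPM in bFGF (adjusted p = 0.227) and PMEL at 0.0723 and 0.140 CPM.

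S100A13, which takes part in the release of FGF1 from cells by a route outside the classical secretory pathway, fell under bFGF as well. It was at 7.71, 8.05 and 8.86 CPM in control, 7.77, 7.23 and 8.18 CPM in OIM and 4.57, 4.96 and 4.52 CPM in bFGF. As for its antisense neighbour S100A1, control and OIM overlapped and bFGF stood below both. The log2 fold change was -0.72 in bFGF against OIM (SE 0.111, adjusted p = 9.83e-06) and -0.81 in bFGF against control (adjusted p = 2.02e-06). OIM against control gave -0.09 (95% interval from -0.31 to 0.13, adjusted p = 0.657). The ratio of S100A13 to S100A1, in counts per kilobase of merged exon, was 3.09 ± 0.365 in control, 3.33 ± 0.207 in OIM and 9.55 ± 1.27 in bFGF (SD, n = 3). No bFGF library was under 8.64.

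S100A14, a member known from epithelia, fell in the bFGF libraries. Its levels were 50.7, 50.3 and 48.7 CPM in control, 41.9, 37.4 and 42.6 CPM in OIM and 27.5, 23.5 and 26.9 CPM in bFGF. The groups did not overlap and ran in the order bFGF, OIM, control from low to high. The log2 fold change was -0.65 in bFGF against OIM (SE 0.0652, adjusted p = 2.87e-08) and -0.94 in bFGF against control (adjusted p = 7.60e-11), and OIM against control gave -0.30 (SE 0.0631, adjusted p = 0.00309), under the fold limit. The 6 epithelial markers summed to at most 0.322 CPM in any library, and EPCAM, CDH1, KRT18 and KRT19 had at most 3 counts in each OIM and bFGF library. With library totals the values in bFGF against OIM were -0.42 for S100A14 and -0.499 for S100A13, and neither was then called.

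S100A11 (calgizzarin), a partner of annexin A1, and S100A16, a widely expressed member, had small differences that ran in the same order as those of S100A14. S100A11 was at 179, 177 and 180 CPM in control, 165, 161 and 160 CPM in OIM and 146, 145 and 145 CPM in bFGF. S100A16 was at 147, 145 and 143 CPM in control, 136, 130 and 135 CPM in OIM and 128, 119 and 128 CPM in bFGF. For both genes every OIM library was below every control library and every bFGF library below every OIM library. The log2 difference of S100A11 was -0.16 in bFGF against OIM (SE 0.0343, adjusted p = 0.000447) and -0.30 in bFGF against control (adjusted p = 1.88e-07). For S100A16 these were -0.10 (SE 0.0396, adjusted p = 0.0306) and -0.22 (adjusted p = 6.80e-05). Neither gene reached the fold limit, and with library totals the bFGF against OIM values were 0.065 for S100A11 and 0.12 for S100A16, the opposite sign.

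OIM alone, set against control, moved none of the members past both limits. Of the 9 members, 0 were called higher, where 1.49% of all genes tested were, and 0 were called lower, where 0.864% were. DESeq2 also called 0, beside 354 of 13662 genes. At an unadjusted p under 0.05 there were 7 members by edgeR, beside 26.2% of all genes, and 7 by DESeq2. By the adjusted p alone 2 members were higher (S100A2 and S100A4), beside 7.69% of all genes, and 4 were lower (S100A6, S100A10, S100A11 and S100A14), beside 5.87%. The libraries of OIM and control did not overlap for 7 of 9 members, beside 28.8% of all genes. The largest difference was that of S100A10. The median size of the log2 difference was 0.29 over the members and 0.11 over all genes.

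In bFGF against control, S100A2, S100A4 and S100A6 rose and S100A1, S100A13 and S100A14 fell. These are 3 members called higher, where 18.9% of all genes were, and 3 called lower, where 20.0% were. By the adjusted p alone the counts were 3 higher and 5 lower, beside 34.5% and 35.7%, and the groups did not overlap for 8 of 9 members, beside 73.7% of all genes. DESeq2 called 6. With library totals 5771 of 13662 genes were called, and the higher share of all calls was 68.1% against 48.5%. The members called were again 3 higher and 3 lower. The comparisons share libraries: bFGF against control shares its controls with OIM against control, and the OIM libraries are the baseline of bFGF against OIM.

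**Figure D2:**
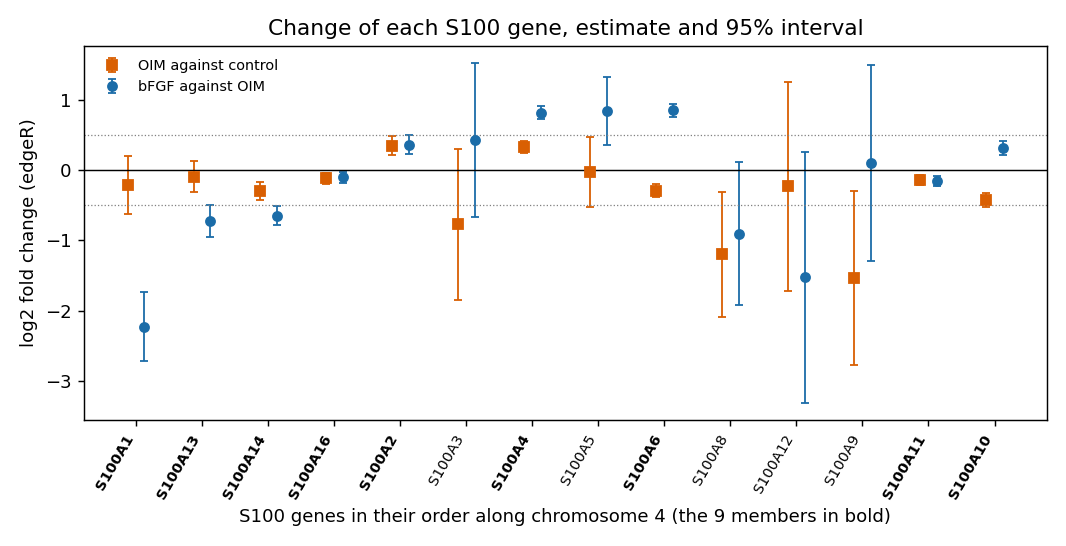
Log2 fold change of each tested S100 gene with its 95% interval, from the edgeR fit over 9 libraries, for OIM against control (squares) and bFGF against OIM (circles), with genes ordered along the chromosome and dotted lines at the fold limit of 0.5. S100A1, S100A13 and S100A14 lie below the lower line under bFGF, and S100A4, S100A5 and S100A6 above the upper line; the estimates of S100A8 and S100A12 are also below the lower line, with intervals that span 0, and the wide intervals belong to genes with few counts.

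Set in their order along the chromosome, the bFGF against OIM values of the first 4 genes, S100A1, S100A13, S100A14 and S100A16, were all negative, and those of the next 5, S100A2, S100A3, S100A4, S100A5 and S100A6, were all positive. Beyond S100A6 the signs were mixed: S100A8 was at -0.91, S100A12 at -1.52, S100A9 at 0.11, S100A11 at -0.16 and S100A10 at 0.32. They were also mixed among the genes just before S100A1, with INTS3 at 0.00088, NPR1 at -0.41, ILF2 at 0.79, SNAPIN at -0.94 and CHTOP at 0.14. This arrangement was noticed after the values were seen and is a description. S100A16 and S100A3 contribute little to it, since S100A16 was at -0.10 and S100A3 at 0.43 with an adjusted p of 0.484. With library totals S100A16 was at 0.12, where the median of all genes was 0.22. In the 300 bases around each annotated start (250 before, 50 after), the AP-1 motif TGACTCA was found on either strand in 1 of the 9 members (S100A11). Of 19503 such windows, at protein-coding genes with a row in the count table, 3.40% held it. The TEAD motif CATTCC was found in 1 (S100A16), beside 11.8% of all windows. The ETS motif CCGGAAG (11% of all windows), the E-box CACGTG (7.93%) and the TATA box TATAAA (10.9%) were in 0 of the 9.

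The family as a whole took a small part of each library, and its make-up differed between the groups. The 9 members summed to 1062 ± 42.1 CPM (SD, n = 3) in control, against 959 ± 34.98 CPM for OIM and 1294 ± 12.6 CPM for bFGF. As shares of the unscaled gene counts, which TMM does not correct, they made up 0.101%, 0.0911% and 0.143%, so these scales differ in the size of the bFGF difference. To compare genes with each other, counts were divided by the length of the merged exons, and each gene was given as its share of the family's sum on that scale. In control the order was S100A6 (46.5% ± 1.05), S100A11 (22.4% ± 0.856), S100A2 (10.6% ± 0.510), S100A10 (8.77% ± 0.292), S100A4 (4.71% ± 0.170), S100A16 (3.51% ± 0.188), S100A14 (2.88% ± 0.176), S100A13 (0.474% ± 0.0298) and S100A1 (0.156% ± 0.0265). In each group, 0 of the 8 pairs of neighbours in the order overlapped between libraries.

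The order in OIM was that of control, and in bFGF it was the same except that S100A4 stood above S100A10. The share of S100A6 was 41.9% ± 0.338 in OIM and 53.7% ± 0.432 in bFGF, and that of S100A4 was 6.56% ± 0.129 and 8.21% ± 0.135. S100A2 held 15.0% ± 1.25 in OIM and 13.7% ± 0.409 in bFGF, above control in every library, and the OIM and bFGF libraries overlapped. The share of S100A11 was 22.5% ± 0.750 in OIM and 14.2% ± 0.181 in bFGF. S100A10 held 7.24% ± 0.548 in OIM and 6.37% ± 0.0473 in bFGF. With the longest transcript in place of merged exons all 9 members kept their rank in each group.

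**Figure D3:**
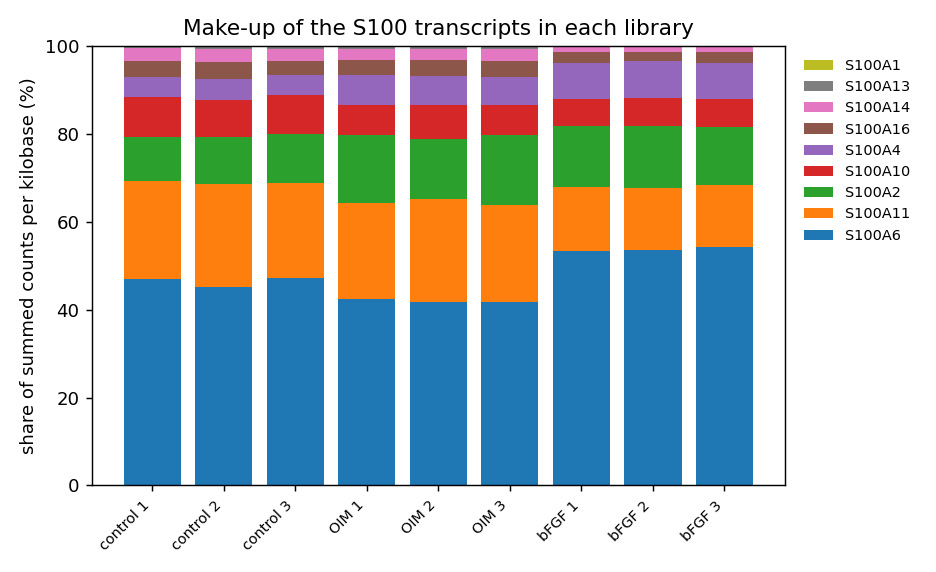
Share of each of the 9 measured S100 members in the family's summed counts per kilobase of merged exon (%), stacked for each of the 9 libraries. S100A6 makes up 41.7% to 47.1% in the control and OIM libraries and 53.4% to 54.2% in the bFGF libraries, while S100A11 is at least 21.7% in the former and at most 14.4% in the latter.

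Ratios of members within a library, which do not depend on how libraries are scaled, were read as well. They were taken on counts per kilobase of merged exon. The ratio of S100A4 to S100A14 was 1.62, 1.60 and 1.69 in control, 2.57, 2.67 and 2.37 in OIM and 6.43, 7.84 and 6.90 in bFGF. The ratio of S100A6 to S100A11 was 2.13, 1.94 and 2.17 in control, 1.92, 1.79 and 1.89 in OIM and 3.70, 3.77 and 3.85 in bFGF. In both ratios all bFGF libraries stood above all other libraries. That of S100A14 to S100A16, neighbours on the same strand, was 0.820 ± 0.0063 in control, 0.724 ± 0.0348 in OIM and 0.495 ± 0.0217 in bFGF (SD, n = 3), with no overlap.

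Of the other S100 genes, 8 had a row and 5 were tested, and S100A5, which lies between S100A4 and S100A6, was the one called in bFGF against OIM. S100A5 was at 2.04, 1.48 and 2.53 CPM in control, 2.14, 2.20 and 1.63 CPM in OIM and 3.11, 2.84 and 4.77 CPM in bFGF. Every bFGF library was above all others. Its log2 fold change was 0.85 in bFGF against OIM (SE 0.233, adjusted p = 0.00332) and 0.83 in bFGF against control (adjusted p = 0.00376); without bFGF replicate 3 the latter was 0.56 with an adjusted p of 0.0504 and was not called.

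The calprotectin genes S100A8 and S100A9 were low everywhere. S100A8 was at 0.862, 0.742 and 0.871 CPM in control, 0.498, 0.353 and 0.228 CPM in OIM and 0.168, 0.231 and 0.173 CPM in bFGF, on 9 to 52 counts. It fell in bFGF against control, with a log2 fold change of -2.102 (SE 0.463, adjusted p = 0.000461), while OIM against control gave -1.20 (adjusted p = 0.0707; 0.0453 by DESeq2, where it was called) and bFGF against OIM -0.91 (adjusted p = 0.107). S100A9, on 4 to 31 counts, gave -1.43 in bFGF against control with an adjusted p of 0.0397, and DESeq2 gave 0.0547. That call was also lost when any library except control replicate 1 or bFGF replicate 2 was left out, with adjusted p-values from 0.0503 to 0.172 among the 7 losses. The summed leukocyte markers, most of it CD14, stood at 12.99 to 16.2 CPM in the control libraries, 13.97 to 15.5 CPM in OIM and 8.23 to 9.003 CPM in bFGF, so the sum stood within the range of control in OIM, where S100A8 and S100A9 were below control. CD14 had group means of 13.7, 13.5 and 7.68 CPM in that order, CD68 of 0.346, 0.415 and 0.349 CPM and ITGAM of 0.0165, 0.0332 and 0.128 CPM. The group means of CSF1R and LYZ stood in the order of those of S100A8, with CSF1R at 0.448, 0.338 and 0.215 CPM and LYZ, which was too low to be tested, at 0.110, 0.0933 and 0.0253 CPM. CSF1R gave -1.05 in bFGF against control (adjusted p = 0.0604), with the groups apart, and -0.40 in OIM against control (adjusted p = 0.637), where they overlapped. PTPRC, the pan-leukocyte marker, was below 0.5 CPM as a group mean throughout. Their part in these differences was not tested.

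S100A12 had 0 to 22 counts and was not called (bFGF against OIM -1.52, adjusted p = 0.123), although without bFGF replicate 3, which held 10 of the 11 bFGF counts, the value was -4.15 with an adjusted p of 0.00722. S100A3 was on 14 to 70 counts, with the highest in control replicate 2, and was not called in any comparison. S100A7 had 0 counts in all 9 libraries. S100G had 4 counts in control replicate 1 and S100Z 4 counts in OIM replicate 2, each with 0 elsewhere. S100P has no row under that symbol and was not analysed here.

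The genes through which S100 proteins are known to act were next followed, from a list of 3 receptors and 20 binding partners. Of the 23 genes, 22 were tested, and in bFGF against OIM 2 were called higher and 3 lower, beside 17.7% and 18.4% of all genes tested. FGF1, the growth factor whose release involves S100A13, had the largest rise. It was at 0.459, 1.17 and 0.603 CPM in control, 1.05, 1.69 and 1.37 CPM in OIM and 13.3, 12.9 and 13.004 CPM in bFGF. The log2 fold change was 3.24 (SE 0.205, adjusted p = 2.30e-11), so FGF1 transcripts rose where those of S100A13 fell. In OIM against control FGF1 gave 0.87 (adjusted p = 0.0265) and was the 1 gene called of the 22, beside 1.49% of all genes called higher and 0.864% lower. The groups overlapped, and the call was lost without control replicate 1 (0.63, adjusted p = 0.136), without control replicate 3 (0.74, adjusted p = 0.118) and without OIM replicate 2 (0.69, adjusted p = 0.0703).

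The other genes called in bFGF against OIM were those of cytoskeletal and kinase partners and a chaperone adaptor. MYH9, the heavy chain bound by S100A4, fell by 0.84 on the log2 scale (SE 0.0404, adjusted p = 3.02e-13), from a mean of 3496 CPM in OIM to 1951 CPM in bFGF, without overlap. STK38, a kinase activated by S100B, fell by 0.70 (SE 0.0492, adjusted p = 1.23e-10) and IQGAP1, a scaffold of actin and calmodulin, by 0.57 (SE 0.0314, adjusted p = 2.66e-12). STIP1, a co-chaperone of HSP70 and HSP90, was named after its values were seen and rose by 0.51 (SE 0.0407, adjusted p = 9.15e-10), just past the fold limit. Leaving out OIM replicate 1, OIM replicate 3 or bFGF replicate 3 put it just under, at 0.495, 0.485 and 0.484. With library totals STK38 (-0.48) and IQGAP1 (-0.35) were under the fold limit and not called. S100A4 and MYH9 thus moved in opposite directions, both past the limits.

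The annexins, the membrane-binding partners of the family, had small differences. ANXA2, bound by S100A10, was at 1239.5 ± 10.99 CPM (SD, n = 3) in control, against 1096 ± 6.48 CPM for OIM and 983 ± 28.6 CPM for bFGF, a log2 difference of -0.16 in bFGF against OIM (SE 0.0315, adjusted p = 0.000187). The ratio of S100A10 to ANXA2, in counts per kilobase of merged exon, was 0.206 ± 0.0138 in control, 0.173 ± 0.00667 in OIM and 0.241 ± 0.00615 in bFGF. It was lowest in OIM and highest in bFGF with no overlap. ANXA11, a partner of S100A6, gave -0.17 (adjusted p = 0.000369), and ANXA1, a partner of S100A11, gave -0.02 with a 95% interval from -0.10 to 0.06. The ANXA2, ANXA1 and ANXA11 values turned positive with library totals (0.064, 0.20 and 0.051). CACYBP, the S100A6 partner, was higher in bFGF against OIM by 0.38 (SE 0.0548, adjusted p = 4.25e-06), under the fold limit. With library totals it was at 0.60 and was called.

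**Figure D4:**
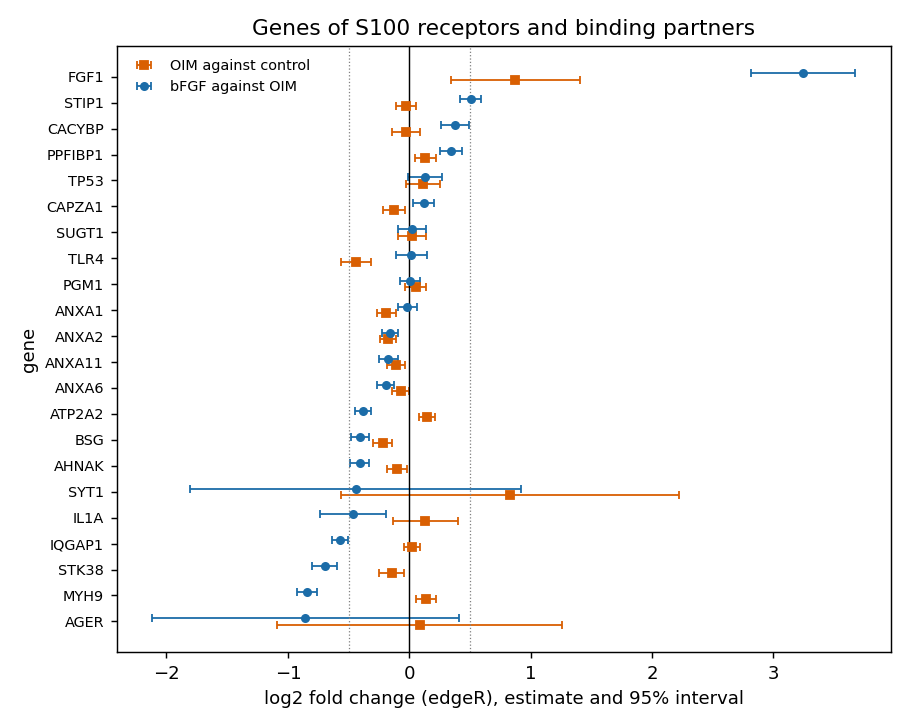
Log2 fold change with its 95% interval (edgeR) of the 22 tested genes of S100 receptors and binding partners, ordered by their value in bFGF against OIM (circles), beside OIM against control (squares); dotted lines mark the fold limit of 0.5. FGF1 stands apart at 3.24, and MYH9, STK38 and IQGAP1 lie below the lower line, as does the estimate of AGER, whose interval spans 0.

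Among the receptors, AGER was near the limit of detection, on 5 to 28 counts, with a mean of 0.286 CPM in control, against 0.298 CPM for OIM and 0.166 CPM for bFGF, and was not called. TLR4 was at 46.2 ± 1.98 CPM (SD, n = 3) in control, against 34.1 ± 1.23 CPM for OIM and 34.5 ± 2.53 CPM for bFGF, -0.44 in OIM against control (SE 0.0598, adjusted p = 3.59e-05) and 0.02 in bFGF against OIM (95% interval from -0.11 to 0.14). BSG, which encodes the receptor basigin, was at 275 ± 5.22 CPM in OIM and 208 ± 3.50 CPM in bFGF (-0.41, adjusted p = 6.37e-09, under the fold limit). In bFGF against control, 1 of the 22 receptor and partner genes was called higher (FGF1) and 5 lower, beside 18.9% and 20.0% of all genes, so the lower count is near the background. The 5 were MYH9, STK38, IQGAP1, BSG (-0.62) and AHNAK (-0.51), of which BSG and AHNAK were named after their values were seen. With library totals MYH9 (-0.48), IQGAP1 (-0.32), BSG (-0.40) and AHNAK (-0.29) were no longer called. AHNAK was also under the fold limit without control replicate 1, OIM replicate 2 or bFGF replicate 1 (-0.49, -0.49 and -0.48), and in the fit on 2 groups (-0.494).

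Other EF-hand proteins were set beside the family from a list of 15 genes, all tested. In bFGF against OIM 1 was called higher and 2 lower, beside 17.7% and 18.4% of all genes, and by the adjusted p alone 4 were higher and 9 lower, beside 33.8% and 33.5%. EFHD2 (swiprosin-1), an actin-binding calcium sensor, rose by 0.72 on the log2 scale (SE 0.0467, adjusted p = 3.59e-11), from 64.3, 65.5 and 60.5 CPM in OIM to 101, 108 and 104 CPM in bFGF. NUCB1, a calcium-binding protein of the Golgi, fell by 0.74 (SE 0.0446, adjusted p = 1.02e-11), and RCN3, a calcium-binding protein of the endoplasmic reticulum, fell by 0.63 (SE 0.0349, adjusted p = 2.94e-12), a call that was lost with library totals (-0.41). The median log2 difference of the list was -0.28, beside -0.10 for the S100 members. In OIM against control 0 of the 15 were called by edgeR, beside 1.49% of all genes higher and 0.864% lower. DESeq2 called 0 of them, beside 354 of 13662 genes. At an unadjusted p under 0.05 there were 7 by each tool, beside 26.2% of all genes by edgeR. In bFGF against control 1 was called higher and 4 lower, beside 18.9% and 20.0% of all genes.

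Markers of the cells were read in the same fit. All 9 markers of valve interstitial cells were expressed in every library, and their sum was 61721 to 70459 CPM in the control and OIM libraries and 38756 to 39099 CPM in bFGF, with COL1A1 (-1.34) and POSTN (1.46) moving in opposite directions in bFGF against OIM. The 7 endothelial markers summed to 18.9 to 22.7 CPM in the control and OIM libraries and 34.0 to 36.6 CPM in bFGF, and 6 of the 7 were called higher in bFGF against OIM, beside 17.7% of all genes. PECAM1 made up most of this endothelial sum, and VWF was not called (-0.43, adjusted p = 0.543). The sum was higher in bFGF, as were S100A4, S100A5 and S100A6, and S100A2 against control. Between control and OIM the sum overlapped, where S100A4 and S100A6 did not. The Schwann cell and melanocyte sum and the leukocyte sum were lower in bFGF than in OIM, as were S100A13 and S100A14. The part of these sums in those results was not tested.

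The genes whose levels over the 9 libraries most resembled those of the S100 members with the largest rise and the largest fall were taken as a description. For S100A6 they were LGALS1, which encodes galectin-1 (Pearson r = 0.986 of log2 CPM), PSME3 (0.985) and SLC9A9 (0.984). For S100A1 they were GTPBP2 (0.999), KDELR2 (0.998) and PCSK1N (0.997). The 9 points fall into 3 groups and share their libraries, so these values mostly restate the order of the groups.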

How the data were processed

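RNA of PVICs was sequenced in 3 groups of 3 libraries, grouped by the sample labels. The authors deposited a table of estimated counts that were not normalized; its unit is estimated counts, since some of its 9888 non-coding rows are not whole numbers, but the gene rows used here are whole-number counts. The 6179 circRNA rows and 19 unnamed columns without values were not used, and 25 gene symbols altered to dates were left as they stand. The labels name Trimmomatic, HISAT2 and StringTie, Sscrofa11.1, a stranded kit that depletes ribosomal RNA and 3 days of treatment, whereas the study's methods name Cutadapt, STAR, poly-A selection and a shorter treatment. Depletion keeps more unspliced RNA than poly-A selection does, which can change the counts of overlapping genes. The counting program is not given in the sources used here. As a check of the build, both ends of 5249 of 6178 circRNAs lay at exon boundaries of the annotation (85.0%), and 0 after a shift by 7 bases.

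The test on gene counts was that of edgeR 4.0.16, run in R 4.3.3 (filterByExpr, TMM, quasi-likelihood test, 1 fit on 3 groups with 6 residual degrees of freedom). The SE is the size of the log2 fold change divided by the square root of F. The test was run on simulated counts with 200 changed genes, evenly up and down. In the data 4939 genes were called in bFGF against OIM, so the simulation does not bear on the choice between TMM and library totals. The common biological coefficient of variation was 0.0602. No 2 libraries of a group agreed within sampling noise (mean chi-square per gene from 4.64 to 18.4), and OIM replicate 2 stood furthest from its group.

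The members, lists and tests were chosen with earlier results of these data known. The naming rule took every member, every detected other S100 gene, up to 4 called genes with the largest change in bFGF against OIM per list, 7 partners (ANXA2, ANXA1, ANXA11, CACYBP, MYH9, FGF1 and AGER) whatever their change, and the 3 genes most correlated with the members of largest rise and fall (mean log2 CPM of at least 1). The alternatives tried included DESeq2 1.42.0, its size factors in edgeR, unscaled library totals, other filters, fits on 2 groups, a replicate block, other fold limits, leaving out each library and, for lengths, the longest transcript.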

Additional observations from a re-analysis of the deposited data

How the results depend on the processing

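For the 9 members, 181 of 189 log2 fold changes under other settings and 243 of 243 with a library left out kept their direction and their side of the limits. The 8 exceptions all came from library totals in place of TMM, which moved the median of all genes from -0.0029 to 0.22 in bFGF against OIM and from -0.016 to 0.21 in bFGF against control and the share of higher calls from 49.0% to 68.8% and from 48.5% to 68.1%. In bFGF against OIM S100A11 (0.065) and S100A16 (0.12) turned positive, S100A2 (0.59) and S100A10 (0.54) became called, and S100A13 (-0.499) and S100A14 (-0.42) were no longer called. In bFGF against control S100A10 (0.12) and S100A16 (0.0089) turned positive. Relative to the shifted median, S100A11 and S100A16 were at -0.15 and -0.10 in bFGF against OIM, and S100A10 and S100A16 at -0.09 and -0.20 in bFGF against control. On that footing, in bFGF against OIM, S100A13 (-0.72) and S100A14 (-0.64) were past the fold limit, and S100A2 (0.37) and S100A10 (0.32) were under it.

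With no fold limit 6 S100 members passed in OIM against control and 9 in bFGF against OIM, and with a log2 limit of 1, 1 passed in bFGF against OIM and 2 in bFGF against control. The S100 counts were the same with any library left out (0 in OIM against control, 5 in bFGF against OIM and 6 in bFGF against control). For the receptors and partners, no fold limit gave 8 in OIM against control, 15 in bFGF against OIM and 17 in bFGF against control, and a limit of 1 gave 0, 1 and 1. The shares of all genes with no fold limit are those given above for the adjusted p alone. Shares of all genes at a limit of 1 are not given here, so the counts at that limit have no background beside them. The fit on 2 groups gave 0 partners in OIM against control, and leaving out each library gave 0 to 1 there, 4 to 5 in bFGF against OIM and 5 to 7 in bFGF against control.

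Same-numbered libraries did not deviate together (correlations from -0.032 to 0.0035, and 0 of 9 libraries closest to their own number), so the numbers were not taken as pairs. With a replicate block the S100 counts were 0, 5 and 6 and the partner counts 1, 5 and 6, as without it.

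Among the 21 other named genes, 403 of 424 values under other settings and 532 of 567 with a library left out were on the same side. With library totals the sign turned for ANXA2 (0.064), ANXA1 (0.20) and ANXA11 (0.051) in bFGF against OIM and ANXA1 (0.017) in bFGF against control, and with the block for S100A5 in OIM against control (0.021). With library totals calls were also lost for STK38 (-0.48), IQGAP1 (-0.35) and RCN3 (-0.41) in bFGF against OIM and for MYH9 (-0.48), IQGAP1 (-0.32), BSG (-0.40), AHNAK (-0.29) and S100A9 (-1.21) in bFGF against control, and gained for CACYBP (0.60 and 0.57 in these comparisons) and STIP1 (0.71 in bFGF against control). In all, other settings gave 12 losses and 4 gains. Leaving out a library turned the sign of some values that were not called, with these ranges: S100A3 (-1.14 to 0.071), S100A5 (-0.20 to 0.18), S100A12 (-0.83 to 0.10), CACYBP (-0.053 to 0.016) and AGER (-0.28 to 0.65) in OIM against control, S100A9 (-0.38 to 0.44), ANXA1 (-0.028 to 0.0037) and TLR4 (-0.025 to 0.076) in bFGF against OIM, and S100A3 (-0.71 to 0.50) in bFGF against control. Beyond library totals, whose shift is given above, the cause of these changes was not tested. S100A3, S100A8, S100A9, S100A12 and AGER rest on at most 70 counts in any library, which limits their precision.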
